A study of Mus musculus with 16 samples.

Results

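The phase II conjugation enzymes of the mouse small intestine were taken as every gene of the count tables whose symbol begins with Ugt1, Ugt2 or Ugt3, with Sult and a digit, or with Gst, a class letter among a, k, m, o, p and t, and a digit. The rule uses gene names and no measured value, and it gave 59 members of 24421 listed genes. Bulk RNA sequencing measured them in intestinal epithelium that had been loosened with EDTA and snap frozen, from the jejunum (the middle segment) and the ileum (the last segment) of wild-type C57BL6/J mice. Each of the 4 groups held 4 libraries: P6 jejunum, P6 ileum, P36 jejunum and P36 ileum, where P6 is a suckling pup 6 days after birth and P36 a weaned mouse 36 days after birth. Each mouse gave both regions, each age had 2 females and 2 males, and within an age the same replicate number is the same mouse. The labels name no allele or treatment in any group. Ages were sampled from different mice, so the comparison of ages is between animals and that of regions is within them. The main regional tests did not use this pairing, and a fit with the mouse as a block was run as an alternative.

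Phase II enzymes join a small polar group to a drug, a dietary chemical, a hormone or a bile pigment, which makes it more soluble and easier to export. UDP-glucuronosyltransferases (Ugt) add glucuronic acid from UDP-glucuronate, sulfotransferases (Sult) add sulfate from the donor PAPS, and glutathione S-transferases (Gst) join the tripeptide glutathione to reactive molecules. The enterocyte, the absorptive cell that lines the villus, carries all these reactions and meets ingested chemicals before the liver does.

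Library totals ran from 12159237 to 25947276 counts assigned to genes. Epcam, a marker of epithelium, was at 1137 to 2230 CPM over all 16 libraries, where CPM is a count divided by the library total, corrected for composition, and set to a common scale. The sum of 5 enterocyte markers was higher in the jejunum at P6 and overlapped at P36, at 22445 to 26735 CPM against 7009.7 to 12277 in the ileum at P6 and 13612 to 16614 against 4161 to 14882 at P36. At P6 the separation of that sum came mostly from Apoa1, a lipoprotein gene, at 16195 to 20404 CPM in the jejunum and 3003 to 5889 in the ileum. Alpi and Krt20 were also higher in the jejunum, at 3053 to 4106 against 1469 to 2704 CPM and 87.7 to 117 against 32.5 to 55.5 CPM. Vil1 overlapped, while Epcam was higher in the ileum, at 1747 to 2139 against 1137 to 1380.2 CPM. The sum of 5 goblet cell markers lay the other way at P36, at 7661 to 9091 CPM in the jejunum and 9276 to 18049 in the ileum. P6 ileum replicate 2 held stromal RNA, with 80.5 CPM of Myh11 and 105 CPM of Col3a1. P6 ileum replicate 4 correlated least with its group. P36 ileum replicates 1 and 3 stood apart in enterocyte markers, and P36 jejunum replicates 1 and 3 held T cell RNA, with 47.1 and 59.4 CPM of Gzma. Of 4 liver markers, Alb and Cyp2e1 were at most 0.235 and 0.0553 CPM in any library. Ttr had 199 to 350.0 CPM in P6 jejunum and 35.4 to 214 in P6 ileum, and Fgb 0.131 to 0.268 and 3.53 to 21.5, with at most 4.04 and 0.0791 CPM at P36. Markers of other cell types also moved with age in both regions. The sum of 5 Paneth cell markers was 25.3 to 809 CPM in P6 jejunum and 48.1 to 658 in P6 ileum against 4278 to 8539 and 5305 to 14821 at P36, with Lyz1 at 6.03 to 20.3 CPM in all P6 libraries. The sum of 4 tuft cell markers was 0.625 to 0.862 and 1.14 to 3.58 CPM at P6 against 16.4 to 20.8 and 9.56 to 17.3 at P36. The macrophage list was higher at P6 through Csf1r, at 415 to 498 CPM in P6 jejunum and 0.838 to 3.55 in P36 jejunum, while its defining gene Adgre1 was at most 2.46 CPM in any library. The part of these cell type and age differences in the values that follow was not tested.

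Added over all 59 members, phase II transcripts took 1650.2, 1749, 1639 and 1664 CPM in P6 jejunum and 1923, 1768, 1849 and 2615 in P6 ileum. The P36 jejunum held 4636, 4009.8, 3465 and 4051 CPM and the P36 ileum 2454, 1846, 2018 and 1998. All 4 P36 jejunum libraries were above the other 12. P6 jejunum lay below all 8 ileum libraries, and the ileum groups of the 2 ages overlapped. As group means ± SD (n = 4 mice), this was 1676 ± 50.3 and 2039 ± 389 CPM at P6 and 4040.2 ± 478 and 2079 ± 262 CPM at P36, so that the jejunal mean was 0.822 times the ileal mean in pups and 1.94 times it in weaned mice. Bulk CPM values cannot tell fewer cells of a type from less RNA per cell. Ugt2b34, Gsto1 and Sult1b1 together held, with no correction for gene length, 44.8% of the summed CPM in P6 jejunum, 52.5% in P6 ileum, 50.3% in P36 jejunum and 50.6% in P36 ileum.

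Families differed in how they moved. From P6 to P36 in the jejunum the mean summed level of each of the 10 families with a tested member rose, from 1.53 times for Ugt1 through 2.66 times for Gstm, 3.99 times for Gsta and 4.49 times for Ugt2 to 16.5 times for Sult2, which is Sult2b1 alone. In the ileum the same ratios ran from 0.341 for Gsta and 0.546 for Ugt1, both lower at P36, through 0.821 for Gstm and 1.04 for Ugt2, to 2.24 for Gstp and 11.4 for Sult2. The Ugt1 sum was 245, 105, 204 and 225 CPM in P6 ileum and 112, 103, 104 and 107 in P36 ileum, so these groups overlapped. Ugt1a9 held 153 and 119.8 CPM in P6 ileum replicates 1 and 3, against 5.26 and 17.5 in replicates 2 and 4. In replicate 4 Ugt1a7c had 118 CPM and Ugt1a1 89.2. The regional ratio of Gsta went from 0.173 at P6 to 2.02 at P36 and that of Ugt2 from 0.417 to 1.80. Both sums were thus higher in the ileum of pups and in the jejunum of weaned mice. Single genes did not all follow: in P36 jejunum against ileum 2 of 5 tested Ugt2 genes passed as higher and 2 as lower, and 2 of 4 Gsta genes passed as higher. Gstm was higher in the jejunum at both ages, 1.70 times at P6 and 5.50 times at P36. At P6 that excess came mostly from Gstm5, with a mean of 89.2 CPM in the jejunum and 22.3 in the ileum, and 5 of the 7 Gstm genes passed neither way. The summed levels are given as a description, with no test.

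**Figure D1:**
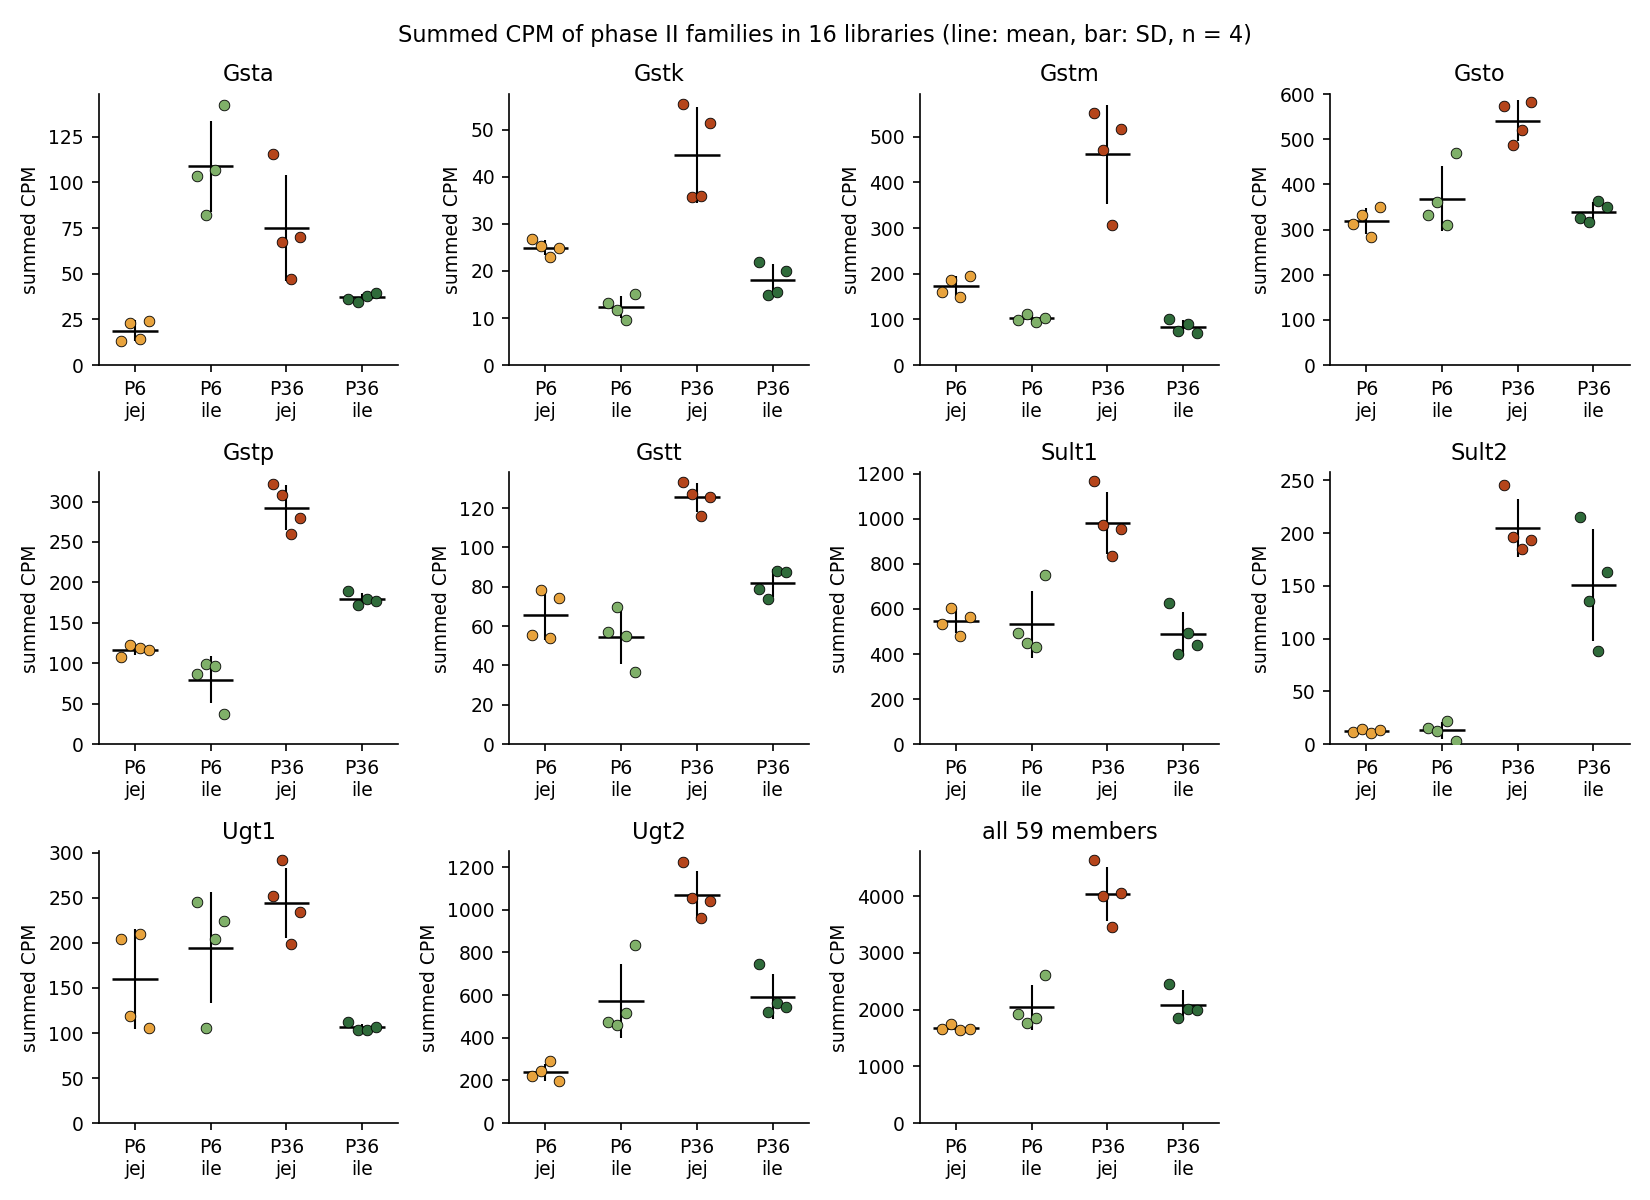
Summed CPM of each of the 10 phase II families with a tested member, and of all 59 members, in each library (points), with the group mean (line) and SD (bar, n = 4 mice); the horizontal positions are P6 jejunum, P6 ileum, P36 jejunum and P36 ileum. The P36 jejunum is the highest group for all members at 4040.2 ± 478 CPM, while Gsta and Ugt2 are higher in the ileum than in the jejunum at P6.

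Each member was then tested. Of the 59, 33 had enough counts to enter a fit across 13429 genes with edgeR's quasi-likelihood test, and a change counted when its Benjamini-Hochberg adjusted p was below 0.05. At P6, 5 of the 33 were higher and 8 lower in the jejunum than in the ileum, where 11.1% of all tested genes were higher and 14.8% lower. At P36, 17 were higher and 5 lower in the jejunum, against 8.30% and 7.80% of all genes. With age, 20 rose and 7 fell in the jejunum, against 24.7% and 26.9% of all genes, and 12 rose and 9 fell in the ileum, against 25.5% and 30.1%. Of these 8 counts, the 17 jejunal members at P36 stand farthest above their background, while 12 rises and 9 falls in the ileum are near theirs.

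Requiring also a fold change above 4, the rule of the study for its own comparisons, left 0 members higher and 5 lower in the jejunum at P6, where 2.20% and 4.30% of all genes passed. Gstm5, at 4.00-fold higher in P6 jejunum, lay just under the line. At P36 7 members were higher and 2 lower, against 2.06% and 1.55% of all genes. With age the jejunum had 10 rises and 3 falls, against 7.86% and 8.59%, and the ileum 4 rises and 5 falls, against 6.40% and 10.0%. The median log2 fold change of the 33 members was -0.02 at P6 and 0.72 at P36 for jejunum over ileum, beside -0.05 and -0.04 for all tested genes. For P36 over P6 it was 1.03 in the jejunum and -0.07 in the ileum, beside -0.01 and -0.03.

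**Figure D2:**
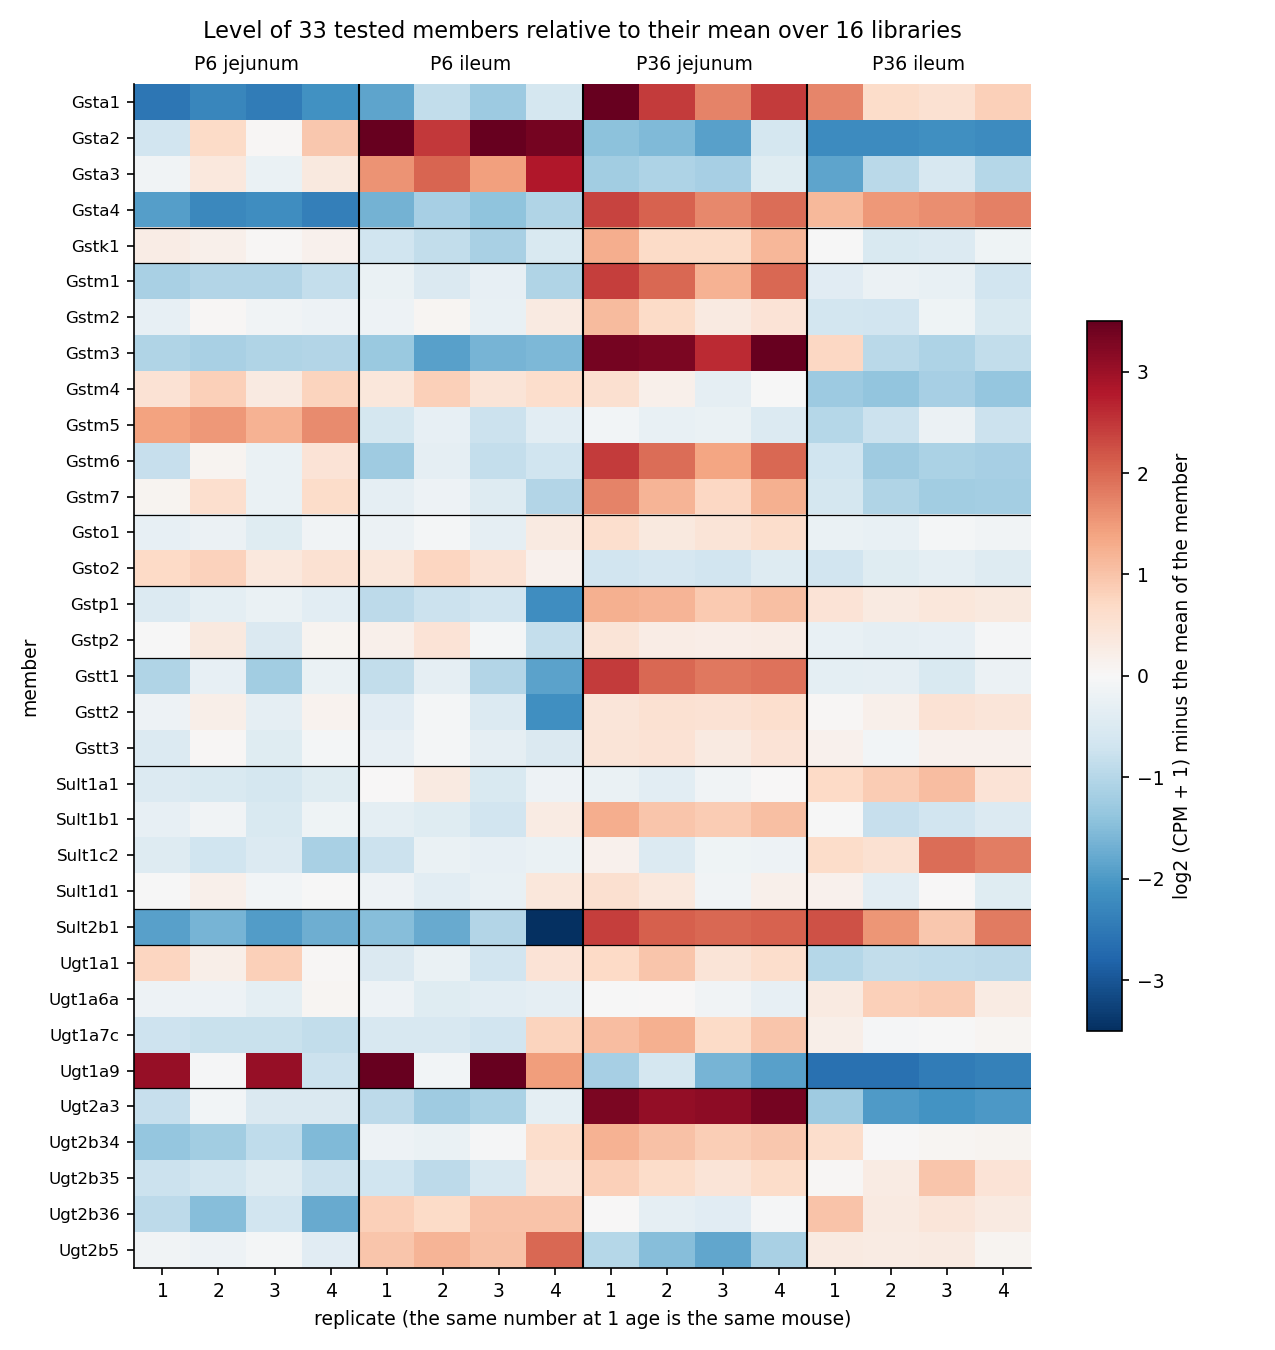
Level of each of the 33 tested members (rows, by family) in each of the 16 libraries (columns, by group), as log2(CPM + 1) minus the member's mean over all libraries, with colours limited at 3.5 in either direction. Most rows of the Gstm family are high in the 4 P36 jejunum libraries, Sult2b1 and Gsta4 are high in all 8 P36 libraries, Gsta2 is high in P6 ileum, and Ugt1a9 is high in replicates 1 and 3 of both P6 regions.

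The alpha class of glutathione transferases (Gsta), which acts on lipid peroxides and their products, changed its leading member with age. Gsta1 had 0, 0.178, 0.0525 and 0.335 CPM in the P6 jejunum libraries and 0.592, 2.20, 1.41 and 2.75 in P6 ileum. It had 71.4, 30.2, 18.2 and 30.5 in P36 jejunum and 17.7, 7.94, 7.39 and 9.26 in P36 ileum. No P36 library overlapped a P6 library of its region, and the P36 jejunum lay wholly above the P36 ileum. Gsta1 was lower in the jejunum than in the ileum at P6 (log2 fold change -3.57 ± 0.73, adjusted p = 0.0019) and higher at P36 (log2 fold change 1.83 ± 0.49, adjusted p = 0.018). The P6 jejunum value rests on 12 counts over 4 libraries, so the fitted rise there, a log2 fold change of 8.00, depends on the small count added in the fit. Its P36 regional call was lost without P36 jejunum replicate 1 (log2 fold change 1.32, adjusted p = 0.097) or without P36 ileum replicate 2, 3 or 4 (adjusted p = 0.059, 0.057 and 0.056).

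Gsta2 moved the opposite way with age. It had 2.36, 7.59, 4.52 and 9.34 CPM in P6 jejunum and 67.2, 29.0, 72.0 and 53.4 in P6 ileum. At P36 it had 1.00, 0.838, 0.449 and 2.505 in the jejunum and 0.166, 0.170, 0.204 and 0.158 in the ileum, where 13 counts over 4 libraries remained. The ileum was above the jejunum in every P6 library and below it in every P36 library. In the ileum Gsta2 fell with age (log2 fold change -8.24 ± 0.64, adjusted p = 2.9e-08), and in the jejunum the fall was smaller (log2 fold change -2.32 ± 0.48, adjusted p = 7.1e-04). The difference between the regional contrasts at the 2 ages, an interaction term, was -5.91 ± 0.78 on the log2 scale (adjusted p = 2.1e-04). Without the 4 ileum libraries that stand apart, its higher P36 level in the jejunum had adjusted p = 0.070.

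Gsta3 had 9.95, 14.5, 9.24 and 14.3 CPM in P6 jejunum and 34.4, 48.5, 31.5 and 83.3 in P6 ileum, with all 4 ileal values above all 4 jejunal ones. By P36 the regions overlapped, at 4.18, 4.68, 4.31 and 7.99 in the jejunum and 2.32, 5.22, 7.19 and 4.99 in the ileum. Gsta3 was lower in P6 jejunum (log2 fold change -2.04 ± 0.35, adjusted p = 5.1e-04) and fell with age in both regions. Gsta4, which detoxifies the lipid aldehyde 4-hydroxynonenal, rose instead. It had 0.479 to 1.05 CPM at P6 and 23.9 to 38.9 at P36 in the jejunum, and 1.48 to 2.75 and 16.0 to 25.2 in the ileum (log2 fold changes 5.40 ± 0.28 and 3.30 ± 0.25, both passing). Compared per kilobase of exon, Gsta3 and Gsta2 led the family in P6 jejunum with 48.6% and 45.4% of its summed CPM per kilobase, and Gsta2 led in P6 ileum with 65.0%. In P36 jejunum Gsta1 led with 54.2% and in P36 ileum Gsta4 with 58.97%. These shares use the full exon length, although reads matching several places were not counted. Gsta1 and Gsta2 share 89.7% and 64.2% of their short sequence windows with other genes, against 0.437% for Gsta3 and 0% for Gsta4. The shares of Gsta1 and Gsta2 can therefore be too low. The order of Gsta3 and Gsta2 in P6 jejunum, and of Gsta4 and Gsta1 in P36 ileum, is thus not settled.

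Gsta1 and Gsta2 lie on chromosome 9 in 1 cluster with Gsta4 (chr9:78191966-78347145 in mm10), and Gsta3 lies apart at chr1:21240585-21265575. They share much sequence: 89.7% of the 50-base windows of Gsta1 and 64.2% of those of Gsta2 occur in another gene, and since reads matching several places were not counted, reads from shared stretches are missing and both levels are uncertain to that degree. Their start regions are shown since these near copies differed in direction with age. Both are RefSeq sequences of build GRCm38.p6 from 250 bases before the start to 10 after it, written 5′ to 3′ along the gene, with chr9:78230419-78230678 on the plus strand for Gsta1 and chr9:78347136-78347395 on the minus strand for Gsta2. Capitals mark matches to GCGTG, the core of the element bound by the dioxin receptor Ahr.
Gsta1: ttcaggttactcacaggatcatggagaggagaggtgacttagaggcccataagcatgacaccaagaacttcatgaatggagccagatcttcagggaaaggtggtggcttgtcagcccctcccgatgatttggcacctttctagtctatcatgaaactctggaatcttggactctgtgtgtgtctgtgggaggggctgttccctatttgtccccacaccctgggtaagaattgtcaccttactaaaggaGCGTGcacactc
Gsta2: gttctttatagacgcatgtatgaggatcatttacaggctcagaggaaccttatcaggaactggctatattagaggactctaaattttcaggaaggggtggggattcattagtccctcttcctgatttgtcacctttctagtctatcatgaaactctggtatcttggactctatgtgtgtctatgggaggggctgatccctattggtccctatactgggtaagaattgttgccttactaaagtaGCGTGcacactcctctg
The pair were identical at 77.9% of 249 aligned positions, and each held the motif within 10 bases of its start. Over the full 300-base start regions GCGTG, searched on both strands, occurred in 15.7% of the 51 members with a RefSeq start region and in 32.4% of all 32851 regions. Each member entered with 1 region, while the share of all regions counts every region, so a gene with several starts can enter more than once. The same holds for the motif shares below. A match is a description of letters only.

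The mu class (Gstm), 7 tested genes that conjugate a broad range of electrophiles, had the highest P36 ratio of jejunum to ileum among the families. Gstm3 had 11.0, 10.4, 10.9 and 11.2 CPM in P6 jejunum and 9.03, 5.64, 7.10 and 7.36 in P6 ileum. It had 250.4, 245, 152 and 301 in P36 jejunum and 39.9, 11.9, 10.9 and 12.6 in P36 ileum. Every P36 jejunum library lay above all 12 others. The fitted difference between jejunum and ileum at P36 was 12.6-fold (log2 fold change 3.66 ± 0.37, adjusted p = 7.4e-06), and the jejunal rise with age was 21.8-fold (log2 fold change 4.45 ± 0.39, adjusted p = 1.1e-07). In the ileum its smaller rise rested partly on P36 ileum replicate 1, at 39.9 CPM, and without the 4 ileum libraries that stand apart the log2 fold change was 0.60 (adjusted p = 0.068).

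Gstm1 likewise rose in the jejunum, but it did not pass with age in the ileum. Its levels were 9.77, 10.6, 10.5 and 12.1 CPM in P6 jejunum, 19.0, 15.6, 18.3 and 10.4 in P6 ileum, 125, 93.4, 53.5 and 93.7 in P36 jejunum and 17.0, 19.4, 18.7 and 13.7 in P36 ileum. Only the P36 jejunum stood clear of the rest (log2 fold change 3.09 ± 0.24, adjusted p = 3.4e-08 for age in the jejunum; log2 fold change 2.41 ± 0.24, adjusted p = 5.1e-06 for jejunum over ileum at P36). Gstm6 and Gstm7 were also higher in P36 jejunum than ileum, by log2 fold changes of 3.37 ± 0.34 and 2.60 ± 0.30, as was Gstm2, by 1.21 ± 0.19. With age Gstm6 and Gstm7 rose in the jejunum (log2 fold changes 2.17 ± 0.32 and 1.03 ± 0.28) and did not pass in the ileum. At P6 Gstm7 was higher in the jejunum at 0.89 ± 0.29 (adjusted p = 0.034), and Gstm6 at 0.82 ± 0.32 missed the threshold (adjusted p = 0.067) but passed with the mouse as a block (adjusted p = 0.015). Gstm2 rose in the jejunum and fell in the ileum with age (log2 fold changes 0.83 and -0.51), and its ileal call, at adjusted p = 0.033, was lost under 8 of the alternatives tried.

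Gstm5 and Gstm4 fell with age in the jejunum, where the other 5 genes of the class rose. Gstm5 had 86.5, 93.2, 75.5 and 102 CPM in P6 jejunum, the highest of its levels, and 20.4, 25.9, 18.4 and 24.5 in P6 ileum. At P36 the regions overlapped, with 29.95, 26.6, 27.0 and 22.6 in the jejunum and 15.6, 18.5, 27.5 and 18.4 in the ileum. It was higher in P6 jejunum than ileum (log2 fold change 2.00 ± 0.18, adjusted p = 9.3e-07) and fell with age in the jejunum (log2 fold change -1.75 ± 0.18, adjusted p = 5.4e-07). Gstm4 had 21.0 to 30.8 and 22.4 to 30.8 CPM in the P6 regions, 13.2 to 25.4 in P36 jejunum and 5.84 to 6.94 in P36 ileum, and its fall with age was -2.03 ± 0.20 on the log2 scale in the ileum and -0.51 ± 0.19 in the jejunum. The jejunal fall of Gstm4 was near the threshold and was lost under 9 alternatives. Per kilobase, Gstm5 held 59.9% of the class in P6 jejunum, and Gstm3 held 51.2% in P36 jejunum.

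The 7 Gstm genes stand in 1 run on chromosome 3 (chr3:107895854-108044859), in the order Gstm5, Gstm7, Gstm6, Gstm3, Gstm2, Gstm1 and Gstm4, with Gstm5 on the plus strand and the others on the minus strand. Between them, Gstm1 shared 23.1% and Gstm3 28.8% of their 50-base windows with other genes, and Gstm5 shared none. The start regions of 1 gene with the large P36 jejunal rise in Gstm3, 1 with a like rise in Gstm1 and 1 with the opposite course in Gstm5 are shown over the same span as above. They lie at chr3:107969165-107969424 and chr3:108017964-108018223 on the minus strand and chr3:107895604-107895863 on the plus strand. Capitals mark GCGTG, TGACNNNGC (the antioxidant response element bound by Nrf2) and TTTATG (a Cdx2 site), on either strand.
Gstm3: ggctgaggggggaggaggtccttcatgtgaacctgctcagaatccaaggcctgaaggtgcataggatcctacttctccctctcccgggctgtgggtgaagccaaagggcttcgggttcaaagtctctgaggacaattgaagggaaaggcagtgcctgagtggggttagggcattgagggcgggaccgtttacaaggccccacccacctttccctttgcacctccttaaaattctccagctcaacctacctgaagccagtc
Gstm1: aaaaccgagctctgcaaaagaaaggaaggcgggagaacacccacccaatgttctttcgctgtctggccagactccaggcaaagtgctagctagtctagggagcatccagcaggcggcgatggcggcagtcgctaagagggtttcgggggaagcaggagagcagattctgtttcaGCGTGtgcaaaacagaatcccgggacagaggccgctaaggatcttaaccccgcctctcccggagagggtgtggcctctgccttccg
Gstm5: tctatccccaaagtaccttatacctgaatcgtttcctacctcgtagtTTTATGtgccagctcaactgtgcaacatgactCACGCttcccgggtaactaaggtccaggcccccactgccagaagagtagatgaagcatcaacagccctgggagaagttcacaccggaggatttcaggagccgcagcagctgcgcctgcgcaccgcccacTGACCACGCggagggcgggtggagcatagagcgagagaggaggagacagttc
Gstm3 held none of these letters. In Gstm5 the TGACNNNGC match overlapped a GCGTG match, a further GCGTG and a TTTATG lay farther out, and Gstm1 held 1 GCGTG at 76 bases before the start. Gstm3 was identical to Gstm1 at 59.5% and to Gstm5 at 56.7% of aligned positions. TGACNNNGC occurred in 3.92% of member regions and 12.4% of all regions, and TTTATG in 7.84% and 11.9%. CAAAGTCCA, a site of the Hnf4 factors, occurred in 0% of member regions and 0.475% of all.

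**Figure D3:**
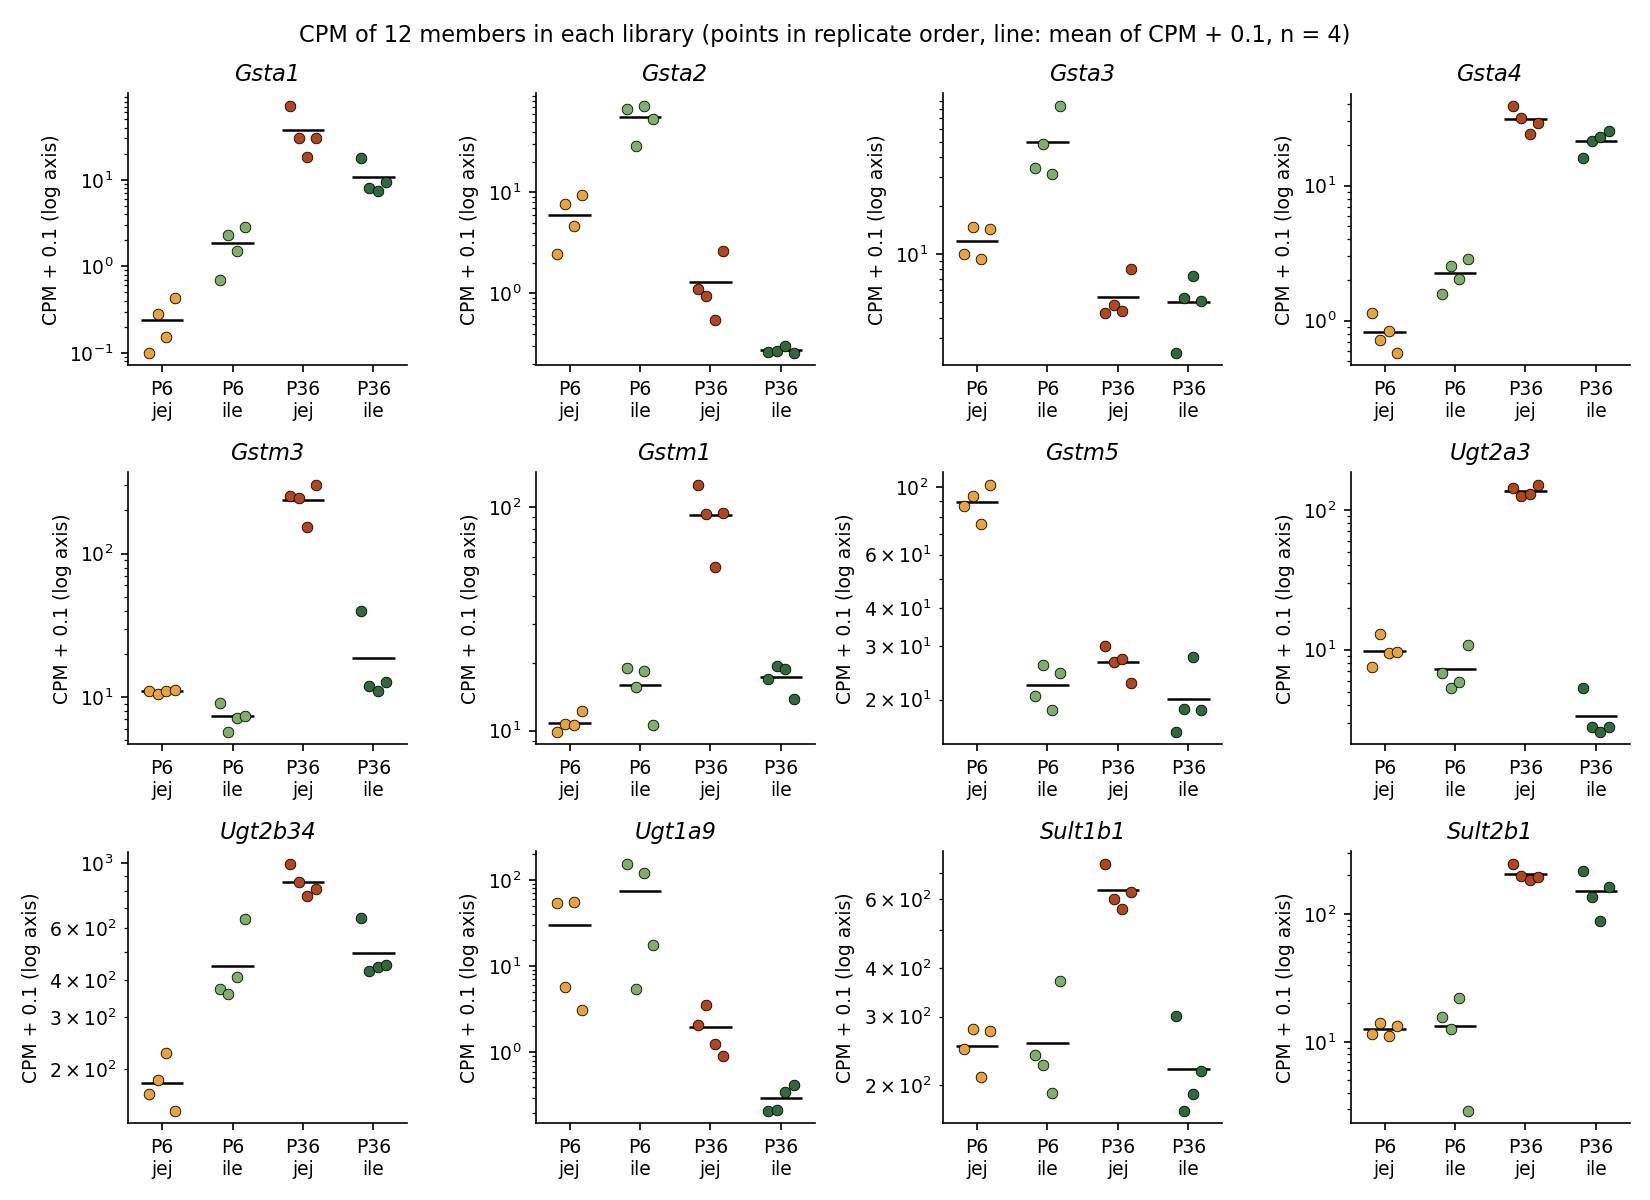
CPM plus 0.1 on a log axis for 12 members in each library, with points as libraries and lines as group means (n = 4). Gstm3 and Ugt2a3 are high in P36 jejunum alone, Gsta2 is high in P6 ileum, and Sult2b1 is raised in both regions at P36.

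Gsto1, an omega class enzyme that reduces dehydroascorbate, had 311, 329.7, 283 and 349.5 CPM in P6 jejunum and 331, 361, 309 and 469.8 in P6 ileum. It had 573, 487, 519.8 and 583 in P36 jejunum and 326, 317, 364 and 349 in P36 ileum, so the P36 jejunum alone stood above the others (log2 fold change 0.67 ± 0.14, adjusted p = 0.0038). Gsto2 was low, at 1.05 to 1.74 and 0.736 to 1.64 CPM at P6, and had 4 and 11 counts over 4 libraries at P36. Its falls passed in both regions (adjusted p = 5.4e-05 and 9.8e-04), while the size of the fall rests on those few counts.

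Gstp1, the pi class enzyme, had 88.8, 98.7, 106 and 95.9 CPM in P6 jejunum, 65.3, 73.2, 78.3 and 26.8 in P6 ileum, 296, 285, 237 and 257 in P36 jejunum and 174, 157, 164 and 158 in P36 ileum. It rose with age in both regions (log2 fold changes 1.47 ± 0.23 and 1.42 ± 0.23). Its jejunal excess of 0.68 at P6 and 0.72 at P36 was near the threshold (adjusted p = 0.040 and 0.042), and with the mouse as a block the P36 call was lost (adjusted p = 0.051). Gstp2 passed in no comparison, at 22.3 to 25.9 CPM in P36 jejunum and 15.0 to 18.04 in P36 ileum. Gstp1 and Gstp2 are neighbours on chromosome 19, and 62.3% and 72.6% of their windows are shared, so reads from those windows are missing and both levels are uncertain to that degree.

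Gstt1, of the theta class on chromosome 10 (chr10:75774122-75834881 for its 4 genes), had 2.57, 5.13, 2.21 and 5.31 CPM in P6 jejunum and 3.11, 5.00, 2.66 and 1.03 in P6 ileum. It had 39.8, 29.0, 25.8 and 26.9 in P36 jejunum and 4.81, 4.93, 4.17 and 5.38 in P36 ileum. Again the P36 jejunum was apart from all 12 other libraries (log2 fold change 2.99 ± 0.38, adjusted p = 6.6e-06 for age in the jejunum). Gstt3 rose in both regions (log2 fold changes 0.66 ± 0.14 and 0.39 ± 0.14). Its ileal call was lost with only the 8 libraries compared and without the 4 ileum libraries that stand apart (adjusted p up to 0.079). Gstt2 rose in the ileum alone at 0.93 ± 0.32, where P6 ileum replicate 4 was low at 4.71 CPM. Without that library Gstt2 also passed in the jejunum. Gstk1, a kappa class enzyme of mitochondria and peroxisomes (chr6:42245935-42250441), was higher in the jejunum at both ages (log2 fold changes 1.01 ± 0.19 and 1.30 ± 0.19), at 23.1 to 26.7 against 9.60 to 15.1 CPM in pups and 35.8 to 55.4 against 15.0 to 21.9 in weaned mice. It rose with age in both regions (log2 fold changes 0.84 ± 0.18 and 0.54 ± 0.19), and the ileal rise, at adjusted p = 0.021, was lost under 4 alternatives.

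Among the Ugt2 family, Ugt2b34 led the family per kilobase and changed its regional order. It had 165, 183, 227 and 144 CPM in P6 jejunum and 374, 358, 409.9 and 643 in P6 ileum. It had 991, 860.1, 769 and 815 in P36 jejunum and 648, 429, 443 and 451 in P36 ileum. Ileum lay above jejunum in all pups and below it in all weaned mice, with no overlap at either age. The tests gave log2 fold change -1.31 ± 0.21, adjusted p = 2.7e-04 at P6 and log2 fold change 0.80 ± 0.21, adjusted p = 0.015 at P36, with an interaction of -2.11 ± 0.30 (adjusted p = 3.1e-04). The P36 call was lost without P36 jejunum replicate 1 (log2 fold change 0.72, adjusted p = 0.054) or, narrowly, P36 ileum replicate 2 (log2 fold change 0.76). Per kilobase it held 69.7% of the Ugt2 family in P6 jejunum and 79.3% in P36 ileum.

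Ugt2a3 showed the sharpest regional split of the weaned mice. Its levels were 7.42, 12.8, 9.35 and 9.48 CPM in P6 jejunum and 6.76, 5.21, 5.80 and 10.7 in P6 ileum. They were 144, 125, 129 and 151 in P36 jejunum and 5.20, 2.72, 2.49 and 2.69 in P36 ileum. The lowest P36 jejunum library was far above the highest of all the others. Jejunum exceeded ileum 41.8-fold at P36 (log2 fold change 5.38 ± 0.30, adjusted p = 2.7e-08). With age Ugt2a3 rose 14.0-fold in the jejunum and fell in ileum libraries (log2 fold change -1.12 ± 0.26, adjusted p = 0.0020).

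Ugt2b5 and Ugt2b36 stayed ileal. Ugt2b5 had 19.2 to 24.3 CPM in P6 jejunum against 51.0 to 107 in the ileum, and 6.56 to 12.4 against 27.7 to 32.4 at P36. Its log2 fold change for jejunum over ileum was -1.59 ± 0.23 at P6 and -1.68 ± 0.24 at P36, and the difference of these did not pass (interaction 0.09 ± 0.32, adjusted p = 0.90). Ugt2b5 fell with age in both regions, by 1.22 and 1.13 on the log2 scale, and shares 41.7% of its windows with other genes. Ugt2b36 had 3.11 to 7.77 CPM in P6 jejunum and 21.3 to 26.8 in P6 ileum (log2 fold change -2.21 ± 0.26, adjusted p = 1.4e-05). Its smaller ileal excess at P36, -0.77 ± 0.25, was near the threshold (adjusted p = 0.044) and without the outlying P36 ileum replicate 1 was -0.58 (adjusted p = 0.12). Ugt2b35 rose with age in both regions (log2 fold changes 1.34 ± 0.26 and 0.84 ± 0.26) and passed in neither regional test. Its ileal rise was lost by edgeR on only the 8 libraries compared (adjusted p = 0.063). Ugt2b36 rose in the jejunum at 1.08 ± 0.25.

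The Ugt1a genes of chromosome 1 (chr1:88055411-88220002) each have their own first exon and share the last exons, where reads match several gene entries. Such reads were not counted, so the counts of a Ugt1a gene come from its own part, an exon of 890 to 986 bases, and levels within the family are read with that limit. Ugt1a1, the enzyme that glucuronidates bilirubin, had 108, 72.9, 114 and 64.5 CPM in P6 jejunum and 43.9, 53.5, 39.3 and 89.2 in P6 ileum. It had 102, 125, 87.5 and 97.8 in P36 jejunum and 31.5, 34.4, 33.9 and 33.3 in P36 ileum. The regions overlapped at P6 and separated at P36 (log2 fold change 1.63 ± 0.24, adjusted p = 2.3e-04). At P6 the jejunal excess was 0.67 ± 0.24 (adjusted p = 0.046), and with the mouse as a block the call was lost (adjusted p = 0.096). The ileal fall with age, -0.76 ± 0.24, became -0.29 without the 4 ileum libraries that stand apart (adjusted p = 0.36). That fit keeps in P6 ileum only mice that share a name prefix, described for Ugt1a9 below.

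Ugt1a7c rose in the jejunum, where it had 36.9 to 40.6 CPM at P6 and 109.7 to 162 at P36 (log2 fold change 1.82 ± 0.27, adjusted p = 3.1e-05). In the ileum it had 45.6, 46.1, 42.3 and 118 at P6 and 78.8, 66.2, 67.1 and 72.0 at P36. The P6 ileum replicate 4 was the one library above the P36 range, and without it the ileal rise was 0.67 on the log2 scale (adjusted p = 1.3e-04), against 0.18 ± 0.26 with it (adjusted p = 0.59). Jejunum exceeded ileum at P36 by 0.96 ± 0.26 (adjusted p = 0.020), a call lost when P36 jejunum replicate 1 or 2 or P36 ileum replicate 2 or 3 was left out, with adjusted p from 0.053 without P36 jejunum replicate 1 to 0.060 without P36 jejunum replicate 2. Ugt1a6a, named after its values were seen, had 0.345 to 0.592 CPM in P6 ileum and 1.19 to 2.33 in P36 ileum. It rose with age in the ileum (log2 fold change 1.98 ± 0.35).

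Ugt1a9 differed widely between the pups. It had 54.4, 5.58, 54.9 and 3.02 CPM in P6 jejunum and 153, 5.26, 119.8 and 17.5 in P6 ileum. It had 2.00, 3.44, 1.17 and 0.799 in P36 jejunum and 0.111, 0.113, 0.245 and 0.317 in P36 ileum. In pups replicates 1 and 3 were high and replicates 2 and 4 low in both regions. The high pair are the mice whose names begin with L41800 and the low pair those with L42150, with means of 95.5 and 7.83 CPM over both regions, a ratio of 12.2. What the name prefix stands for is not given in the sources used here, and each prefix holds 1 female and 1 male. Ugt1a9 fell with age in both regions (adjusted p = 0.0049 in the jejunum and 8.9e-05 in the ileum), to 14 counts over 4 libraries in P36 ileum. In the jejunum the L42150 pups, at 5.58 and 3.02 CPM, overlapped the P36 range of 0.799 to 3.44. The jejunal fall thus came mostly from the L41800 pups. Its regional differences did not pass in the fit without a block (adjusted p = 0.31 at P6 and 0.14 at P36), and both calls depended on the fit. With the mouse as a block the log2 fold change was -1.27 at P6 (adjusted p = 0.043) and 3.12 at P36 (adjusted p = 0.010). The P36 difference also passed by DESeq2 (log2 fold change 3.25, adjusted p = 0.019) and by edgeR on only the 8 libraries compared (adjusted p = 0.0040). With the name prefix as a covariate, chosen after seeing the data, adjusted p was 0.016 at P6 and 0.0017 at P36. Without the 4 ileum libraries that stand apart the P6 log2 fold change was -2.23 (adjusted p = 0.048). That fit keeps only L41800 mice in P6 ileum and both prefixes in P6 jejunum, so it cannot tell region from name prefix.

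Of the sulfotransferases, Sult2b1, which sulfates cholesterol and oxysterols and lies at chr7:45729983-45759555, had the largest rise with age in either region. It had 11.4, 14.0, 10.9 and 13.3 CPM in P6 jejunum and 15.4, 12.6, 21.9 and 2.80 in P6 ileum. It had 245, 196, 185 and 193 in P36 jejunum and 216, 136, 88.4 and 163 in P36 ileum. Every P36 library exceeded every P6 library (log2 fold change 4.04 ± 0.44, adjusted p = 1.4e-06 in the jejunum; log2 fold change 3.52 ± 0.43, adjusted p = 4.8e-06 in the ileum). Neither regional test passed (adjusted p = 0.90 and 0.50). P6 ileum replicate 4 was low, and without the 4 ileum libraries that stand apart Sult2b1 was lower in P6 jejunum than ileum at -0.61 (adjusted p = 0.011) and higher in P36 jejunum at 0.46 (adjusted p = 0.039). That fit keeps in P6 ileum only mice that share a name prefix, so its P6 value cannot tell region from prefix.

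Sult1b1, which acts on phenols and thyroid hormones, had 248, 279, 209.5 and 275 CPM in P6 jejunum and 239, 226, 191 and 369 in P6 ileum. It had 738, 599, 567 and 627 in P36 jejunum and 301, 172, 190.4 and 218 in P36 ileum, so the regions overlapped in pups and not in weaned mice. It rose with age in the jejunum (log2 fold change 1.32 ± 0.21, adjusted p = 7.5e-05) and was higher there than in ileum at P36 (log2 fold change 1.52 ± 0.21, adjusted p = 1.4e-04). Its neighbour Sult1d1, a catecholamine sulfotransferase, passed in none of the tests, with 269 to 326 CPM in P6 jejunum, 221 to 379 in P6 ileum, 265 to 426 in P36 jejunum and 213 to 321 in P36 ileum. Both lie beside the Ugt2 genes on chromosome 5 (chr5:86889770-87591611), a run of 13 members.

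Sult1a1, a phenol sulfotransferase, and Sult1c2 were low and ileal. Sult1a1 had 6 and 40 counts over the 4 libraries of P6 jejunum and P6 ileum and 28 and 127 in P36 jejunum and ileum. Its calls in both regional tests and its jejunal rise with age passed with all libraries (adjusted p = 0.015, 0.016 and 0.022), and each was lost on leaving out 1 library: the P6 regional call without P6 ileum replicate 2, the P36 regional call without P36 jejunum replicate 1 or 2, and the jejunal rise without P6 jejunum replicate 2 or 3 or P36 jejunum replicate 4. Sult1c2 had 0.494 to 1.13 CPM in P6 ileum and 2.61 to 8.66 in P36 ileum, a rise (log2 fold change 2.52 ± 0.50, adjusted p = 4.6e-04) and was lower in P36 jejunum than ileum (log2 fold change -2.11 ± 0.49, adjusted p = 0.0070).

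The regional difference changed with age for 19 of the 33 members by the interaction term, P6 minus P36: 2 were higher (Gstm5 and Ugt1a6a) and 17 lower, against 3.68% and 5.01% of all tested genes. The median interaction was -1.34 on the log2 scale for members and -0.02 for all genes. The largest were -5.91 ± 0.78 for Gsta2, -5.40 ± 0.88 for Gsta1 and -4.93 ± 0.37 for Ugt2a3, and every tested Gsta and Gstm gene passed. Gsta1, Gsta2 and Ugt2b34 were lower in the jejunum at P6 and higher at P36, each past the threshold, a pattern of 0.484% of all tested genes. A further 10 members passed neither way at P6 and were higher in P36 jejunum, as were 4.45% of all genes. Another 4 were higher in the jejunum at both ages and 3 lower at both, against 3.37% and 3.92% of all genes. The Ugt1a6a term (adjusted p = 0.030) was lost under 12 alternatives. That for Ugt1a9 did not pass (adjusted p = 0.11), and with the mouse as a block it was -4.39 (adjusted p = 0.0075), by DESeq2 -4.57 (adjusted p = 0.021) and with the name prefix as a covariate -4.59 (adjusted p = 8.5e-04).

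**Figure D4:**
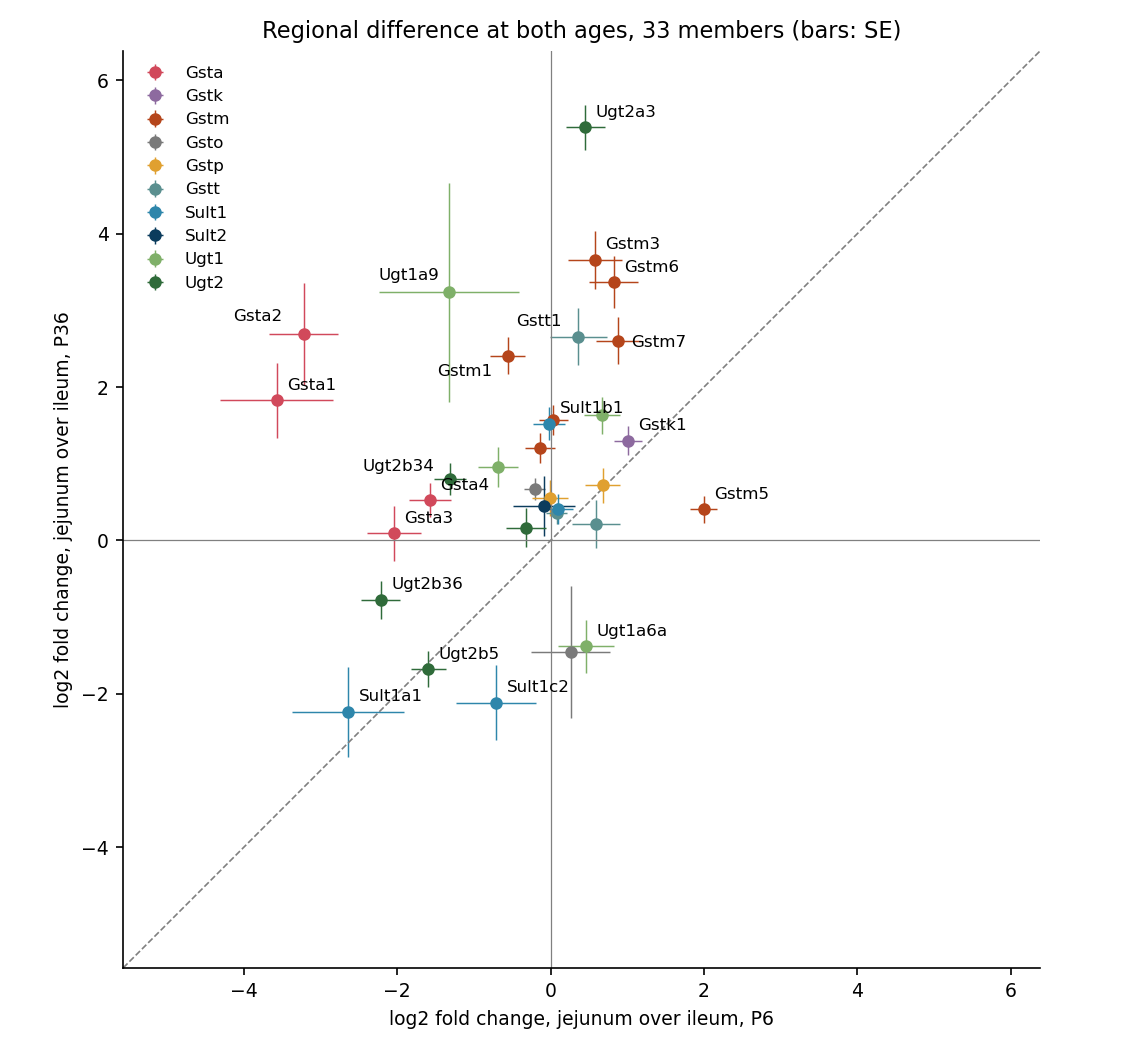
Log2 fold change of jejunum over ileum at P6 (horizontal) and at P36 (vertical) for the 33 tested members, with bars of 1 SE, points coloured by enzyme class and the diagonal of equal difference. Most members lie above the diagonal, Ugt2a3 at 0.45 and 5.38 and Gsta2 at -3.22 and 2.69, while Gstm5 lies below it at 2.00 and 0.41.

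With age, 9 of the 33 members rose in both regions and 6 fell in both, against 17.7% and 21.3% of all tested genes. A further 9 rose in the jejunum without passing in the ileum, against 6.52%, and 2 (Gstm2 and Ugt2a3) rose in the jejunum and fell in the ileum, against 0.410%. In the ileum alone 3 rose and 1 (Ugt1a1) fell, against 7.48% and 8.43%. In the jejunum alone 1 (Gstm5) fell, against 5.30%, and Gstp2 and Sult1d1 passed in neither region, as did 32.5% of all genes. The age contrasts use different libraries for each region but the same mice.

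**Figure D5:**
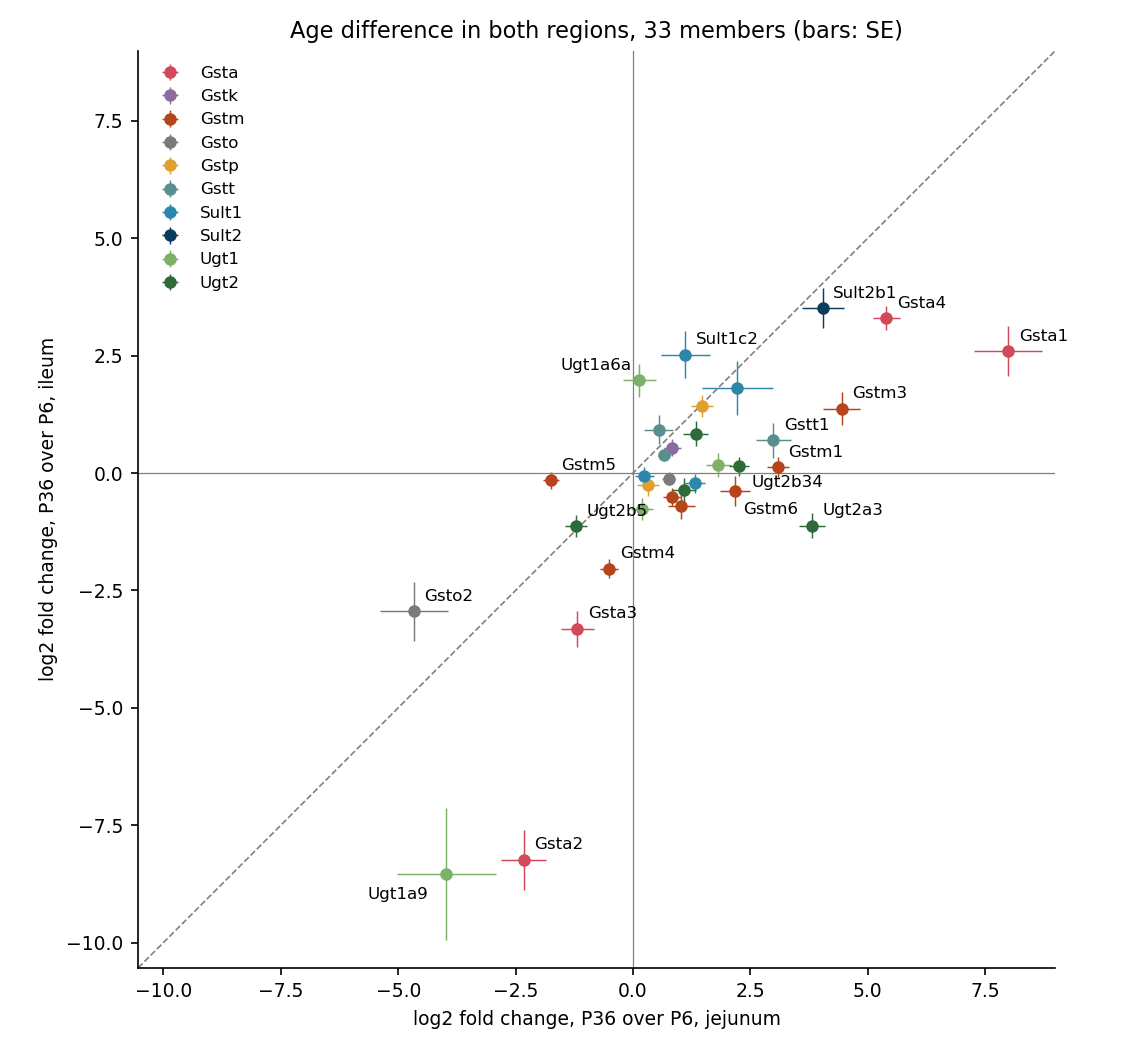
Log2 fold change of P36 over P6 in the jejunum (horizontal) and in the ileum (vertical) for the 33 tested members, with bars of 1 SE, points coloured by enzyme class and the diagonal of equal change. Sult2b1 is high on both axes at 4.04 and 3.52, Ugt2a3 and Gstm3 lie to the right of the diagonal, and Gsta2 and Ugt1a9 are lowest in the ileum at -8.24 and -8.54.

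The other 26 members had too few counts to be tested. Of these, 12 had 0 counts in all 16 libraries: Sult2a1 to Sult2a8, the bile acid and steroid sulfotransferases clustered on chromosome 7 (chr7:13623967-14492926), and Sult1c1, Sult3a1, Ugt2b37 and Ugt3a2. A count of 0 among 322856443 counts allows a level of up to 0.00929 CPM (3 counts of the total, counting error only), and of up to 0.247 CPM in the smallest library. Another 7 had 1 to 8 counts in all. The remaining 7 were Ugt1a10 with 78 counts, Ugt1a6b with 59, Sult4a1 with 47, Ugt1a2 with 46, Ugt2b38 with 33, Ugt2b1 with 19 and Ugt1a5 with 18. Ugt2b38 had counts in P36 libraries alone. No fold change is given for these members.

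Other genes of the pathway were counted in lists, each set beside the share of all tested genes in the same test. Of 16 tested genes for UDP-glucuronate and PAPS supply, 6 higher and 4 lower passed at P36 against P6 in the jejunum (all genes, 24.7% and 26.9%) and 6 higher and 5 lower in the ileum (25.5% and 30.1%), and jejunum against ileum gave 2 higher and 3 lower at P6 (11.1% and 14.8%) and 2 higher and 3 lower at P36 (8.30% and 7.80%). Ugdh, which makes UDP-glucuronate, had mean levels of 273, 402, 335 and 147 CPM in P6 jejunum, P6 ileum, P36 jejunum and P36 ileum. It was higher in P36 jejunum than ileum (log2 fold change 1.19 ± 0.22, adjusted p = 0.0014). Papss2, which makes PAPS, rose in the jejunum (log2 fold change 2.00 ± 0.28, adjusted p = 2.4e-05) and less so in the ileum, at 0.72 (adjusted p = 0.035), with no passing difference between these rises (interaction adjusted p = 0.054), and Papss1 fell in both (log2 fold changes -1.13 and -0.86). Bpnt1, which clears the spent donor PAP, was jejunal at both ages and had 700.1 CPM in P36 jejunum and 193 in P36 ileum. Suox, which oxidises sulfite to sulfate, was ileal, with 759.7 CPM in P36 ileum and 11.8 in P36 jejunum (log2 fold change -6.01 ± 0.22, adjusted p = 2.3e-10).

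Of 26 tested genes for glutathione synthesis and turnover, 17 higher and 4 lower passed with age in the jejunum (all genes, 24.7% and 26.9%) and 14 higher and 5 lower in the ileum (25.5% and 30.1%), and jejunum against ileum gave 8 higher and 6 lower at P6 (11.1% and 14.8%) and 8 higher and 1 lower at P36 (8.30% and 7.80%). Gclc, the catalytic subunit of glutamate-cysteine ligase, had mean levels of 49.5, 186, 75.7 and 68.5 CPM in the 4 groups in the order above, and was lower in P6 jejunum than ileum (log2 fold change -1.91 ± 0.31, adjusted p = 2.7e-04). Gclm, its modifier subunit, fell in both regions (log2 fold changes -1.55 and -1.94), as did Gss, glutathione synthetase (-0.95 and -1.12). Gsr, which regenerates glutathione, rose in both (2.95 and 2.09). Gpx2, the gut glutathione peroxidase, rose from 25.6 to 1056 CPM in the jejunum and from 16.1 to 1069.7 in the ileum, while the secreted peroxidase Gpx3 fell from 8255 to 6.53 and from 9114 to 3.37 CPM.

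Among 12 other tested genes listed as glutathione transferases or their relatives, 5 higher and 4 lower passed with age in the jejunum (all genes, 24.7% and 26.9%) and 6 higher and 2 lower in the ileum (25.5% and 30.1%), and 4 higher and 2 lower at P6 (11.1% and 14.8%) and 3 higher and 1 lower at P36 (8.30% and 7.80%) for jejunum against ileum. Mgst2, a microsomal enzyme, was lower in P6 jejunum (log2 fold change -1.05 ± 0.13, adjusted p = 2.2e-05) and higher in P36 jejunum (log2 fold change 0.70 ± 0.13, adjusted p = 0.0012), the same exchange as Gsta1 and Ugt2b34. Among 11 tested genes of other conjugation reactions, 6 higher and 2 lower passed with age in the jejunum (all genes, 24.7% and 26.9%) and 5 higher and 3 lower in the ileum (25.5% and 30.1%), and 4 higher and 3 lower at P6 (11.1% and 14.8%) and 6 higher and 1 lower at P36 (8.30% and 7.80%) for jejunum against ileum. Baat, which joins bile acids to taurine or glycine, had 0.130 CPM in P6 jejunum and 4.29 in P6 ileum, and rose in the jejunum to 3.74 CPM at P36 (log2 fold change 4.79 ± 0.41, adjusted p = 7.8e-08).

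Lysosomal enzymes listed for the removal of sugar or sulfate groups fell with age. Of 7 listed genes 6 were tested, and the steroid sulfatase Sts was not. Of the 6, 5 fell in the jejunum and all 6 in the ileum, where 26.9% and 30.1% of all genes fell. Gusb, the lysosomal β-glucuronidase, went from 441 to 34.1 CPM in the jejunum and from 728 to 41.6 in the ileum (log2 fold changes -3.69 and -4.13). The sulfatase Arsb fell by log2 fold changes of -1.83 and -2.12. Between regions 3 were lower in P6 jejunum and 1 in P36 jejunum, against 14.8% and 7.80% of all genes. The 6 tested are lysosomal enzymes, whose substrates are mainly macromolecules, and removal of groups from small conjugates was not measured.

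Regulators were counted in 2 lists. Of 17 tested genes of the Nrf2 pathway, which controls many Gst genes, 9 higher and 5 lower passed with age in the jejunum (all genes, 24.7% and 26.9%) and 7 higher and 6 lower in the ileum (25.5% and 30.1%), and 4 higher and 1 lower at P6 (11.1% and 14.8%) and 2 higher and none lower at P36 (8.30% and 7.80%) for jejunum against ileum. Nfe2l2, which encodes Nrf2, had mean levels of 189.6, 125, 379.6 and 169.8 CPM in the same order and was highest in P36 jejunum (log2 fold change 1.16 ± 0.12, adjusted p = 5.6e-06 against ileum). Its targets were divided, with Nqo1 up at log2 fold changes of 1.89 and 1.28 and Hmox1 down at -6.11 and -5.66 in jejunum and ileum.

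Of 17 tested xenobiotic receptors and other transcription factors, 4 higher and 4 lower passed with age in the jejunum (all genes, 24.7% and 26.9%) and 5 higher and 4 lower in the ileum (25.5% and 30.1%), and 3 higher and 2 lower at P6 (11.1% and 14.8%) and 3 higher and 1 lower at P36 (8.30% and 7.80%) for jejunum against ileum. Hnf4g had 167, 248, 862 and 416 CPM in the same order and rose in the jejunum (log2 fold change 2.37 ± 0.25, adjusted p = 1.1e-06). Nr1i3, the xenobiotic receptor CAR, was higher in P36 jejunum than ileum (log2 fold change 3.52 ± 0.39, adjusted p = 1.8e-05), and Ahr lower in P6 jejunum than ileum (log2 fold change -0.85 ± 0.15, adjusted p = 5.6e-04). The pregnane X receptor Nr1i2 was higher in the jejunum at P6 (log2 fold change 1.13 ± 0.20, adjusted p = 7.5e-04) and did not pass at P36.

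Females and males were compared on counts summed over both regions of each mouse, 4 of each sex, with age in the model. By edgeR 0 of 36 members tested differed (smallest adjusted p = 0.9999), 1 member had an unadjusted p below 0.05, and DESeq2 also called 0. Among all 14519 genes tested, 5 passed, which is 0.0344%, and 320 had an unadjusted p below 0.05.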

How the data were processed

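Epithelium of 2 gut regions from 4 P6 and 4 P36 mice was sequenced as poly(A) RNA with a stranded kit. Per the labels and the study's methods, the authors trimmed reads (Trimmomatic 0.38), aligned them to mm10 (STAR 2.5.3 in the submitters' processing notes) and deposited raw counts per gene from featureCounts (Subread 1.6.3), in which reads matching several places or several genes were not counted.

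From these counts, TMM-scaled CPM were computed and 4 group means were fitted over all 16 libraries with edgeR 4.0.16 in R 4.3.3 (quasi-likelihood test, filterByExpr, Benjamini-Hochberg adjustment over 13429 genes); adjusted p below 0.05 was a call, and errors of fold changes are SE. The code was tested on simulated data. Alternatives were other scalings and filters, DESeq2 1.42.0, sex or the mouse as a term, only the libraries compared, and each library left out. Replicate numbers pair the regions of 1 mouse by the labels, and the deviations of both regions from their group means correlated within each mouse (r across genes from 0.157 to 0.391). No pair of libraries was a duplicate. Replicates are separate mice. The depth of 12159237 to 25947276 counts per library limits members below about 1 CPM.

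The members and gene lists were chosen with earlier results of these data known. Members were named where they had a large change with groups that did not overlap, led their family per length, passed the interaction most strongly, had a high mean CPM or failed the filter; pathway genes were named by the smallest p in their list or as listed regulators and key enzymes. Gss, Papss1 and Ugt1a6a were named after their values were seen. Gene positions are those of the deposited count files, start regions came from RefSeq on GRCm38.p6, and shared 50-base windows from GENCODE M21 transcripts; 51 of 59 members had a start region. Shares of start regions are given for 4 of the 5 motifs searched; the other motif and 1 gene are not reported here, so the shares do not describe all motifs.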

Additional observations from a re-analysis of the deposited data

Results flagged for a closer look

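Single libraries stood far from the other 3 of their group, by Dixon's ratio, in 10 of 118 member and group combinations with a mean of at least 1 CPM, where chance alone flags about 1 in 20, or 5.9. In P36 ileum, replicate 1 was the high library for Gstm3 (39.9 CPM), Ugt2a3 (5.20 CPM), Ugt2b34 (648 CPM) and Ugt2b36 (26.5 CPM). P6 ileum replicate 4 was high for Ugt1a7c (118 CPM) and Ugt2b5 (107 CPM). The others were Gsta3 in P36 jejunum replicate 4 (7.99 CPM, high), Gstp2 in P36 jejunum replicate 1 (25.9 CPM, high) and P36 ileum replicate 4 (18.04 CPM, high), and Gstt3 in P36 ileum replicate 2 (41.1 CPM, low). The enterocyte marker sum of P36 ileum replicate 1 was the highest of its group and that of P6 ileum replicate 4 the lowest of its group; their part in these values was not tested.

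The regional difference changed between P6 and P36 for 19 members by the interaction term (log2 scale, P6 minus P36, edgeR's quasi-likelihood test). In the alpha class the terms were -5.40 for Gsta1 (adjusted p = 0.0011), -5.91 for Gsta2 (2.1e-04), -2.14 for Gsta3 (0.013) and -2.10 for Gsta4 (0.0013). In the mu class they were -2.97 for Gstm1 (adjusted p = 3.3e-05), -1.34 for Gstm2 (0.0050), -3.08 for Gstm3 (0.0010), -1.53 for Gstm4 (0.0019), 1.59 for Gstm5 (7.1e-04), -2.55 for Gstm6 (0.0019) and -1.72 for Gstm7 (0.016). Gsto1 had -0.88 (adjusted p = 0.011), Gstt1 -2.29 (0.011) and Sult1b1 -1.54 (0.0036). Among the Ugt genes Ugt1a6a had 1.85 (adjusted p = 0.030), Ugt1a7c -1.65 (0.011), Ugt2a3 -4.93 (5.9e-07), Ugt2b34 -2.11 (3.1e-04) and Ugt2b36 -1.44 (0.017).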

How the results depend on the processing

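No member result reversed. Over 165 results of single members and 4337 alternative values, 4160 kept their direction and side of the threshold, 120 lost a call and 57 gained one; the cause was not tested. Requiring a fold change above 4 left 5 members for P6 jejunum over ileum (0 higher, 5 lower), 9 at P36 (7 and 2), 13 for age in the jejunum (10 and 3) and 9 in the ileum (4 and 5). Scaling by library totals alone gave 2 higher and 11 lower at P6, and a summed level of 1507 CPM in P6 jejunum against 1676; it also moved the median of all genes, from -0.05 to -0.33 for P6 and from -0.04 to -0.18 for P36 jejunum over ileum and from -0.02 to -0.17 for the interaction. With no filter on low counts 1 member was higher in the interaction, as with a mean CPM of at least 1, which left 3 lower at P36. Using the 8 libraries of a comparison only gave 3 higher at P6. Without the 4 ileum libraries that stand apart, chosen after seeing the data, 1 was higher in the interaction. This setting keeps in P6 ileum only mice that share a name prefix. Its values that involve P6 ileum therefore cannot tell region or age from prefix.

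Leaving out each library in turn gave 11 to 14 members for P6 jejunum over ileum (2 to 6 higher, 8 to 9 lower), 16 to 24 at P36 (13 to 19 higher, 3 to 5 lower, with 3 lower without P36 jejunum replicate 1 or 2), 25 to 28 for age in the jejunum (19 to 21 higher, 6 to 7 lower), 19 to 23 in the ileum (11 to 13 higher, 8 to 10 lower) and 18 to 20 for the interaction (1 to 2 higher, 17 to 18 lower). The count of members higher in P6 jejunum fell to 2 without P6 ileum replicate 1 and to 3 without P6 jejunum replicate 2, 3 or 4, P6 ileum replicate 3 or P36 ileum replicate 2. The interaction count of 1 higher came with the loss of Ugt1a6a, without P6 jejunum replicate 1, 2 or 4, P6 ileum replicate 2 or 3, P36 jejunum replicate 1, 3 or 4 or P36 ileum replicate 2 or 3. Summed levels ranged from 1651 to 1688 CPM in P6 jejunum, 1847 to 2129 in P6 ileum, 3842 to 4232 in P36 jejunum and 1954 to 2157 in P36 ileum. The sex test stayed at 0 members in every setting run.

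With the mouse as a replicate block, 14 members passed at P6 (5 higher, 9 lower), 22 at P36 (17 higher, 5 lower) and 20 in the interaction (2 higher, 18 lower). The block changed 6 of 99 member calls, those of Ugt1a9 (3), Gstm6, Gstp1 and Ugt1a1 given above, and no other; it could not be used for age, which differs between mice. Calls lost on leaving out 1 library, besides those given above, were those of Gstm2 for age in the ileum (P6 ileum replicate 2 or 4, P36 ileum replicate 1, 2 or 4), Gstm4 for age in the jejunum (8 libraries), Gstk1 for age in the ileum (P6 ileum replicate 3, P36 ileum replicate 1 or 4), Gstt2 for age in the ileum (P36 ileum replicate 3), Gstm7 at P6 (P6 jejunum replicate 2 or 4, P6 ileum replicate 1, 3 or 4), Gstp1 and Ugt1a1 at P6 (6 and 11 libraries), and Gstp1 and Ugt2b36 at P36 (12 and 11 libraries), with adjusted p up to 0.15, 0.21, 0.066, 0.088, 0.10, 0.19, 0.22, 0.11 and 0.17 over all alternatives in that order. Calls gained included Gstm1 and Ugt2a3 at P6 without P6 ileum replicate 4 (log2 fold changes -0.71 and 0.72), Gstt2 for age in the jejunum without the same library (0.55), Gstm5 at P36 without P36 ileum replicate 3 (0.60) and Gstt1 for age in the ileum without P6 ileum replicate 2 (1.09). Depth limits the low members: Gsta1 in P6 jejunum, Gsta2 and Ugt1a9 in P36 ileum, Gsto2 at P36 and Sult1a1 in P6 jejunum rest on few counts.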

Other observations

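In pups, members other than Ugt1a9 also lay apart by mouse name prefix in both regions, given as values with no test. Ugt1a10 had 0.393 and 0.473 CPM in the jejunum of the L41800 mice and 1.33 and 1.74 in their ileum, and 0 counts in all 4 libraries of the L42150 mice. Ugt1a2 and Ugt1a6b were higher in the L41800 mice in both regions, all below 0.5 CPM. Gsta1, Gsta3, Gstm4, Gstm5, Gstm6 and Gsto1 were higher in the L42150 mice in both regions. For example, Gstm6 had 8.43 to 11.2 against 3.97 to 6.51 CPM in the jejunum and 4.41 to 5.99 against 2.67 to 3.90 CPM in the ileum. Gsta2, Gsta4, Gstm1, Sult1c2, Sult2b1, Ugt1a1, Ugt1a7c and Ugt2b5 lay apart in opposite directions in the regions. The share of all genes that lie apart in these ways was not computed, so no result about the members is read from them. The L42150 ileum libraries are those noted above for stromal RNA and for the lowest correlation. Outside the family, Itln1, which encodes an intestinal lectin, had 782 and 557 CPM in jejunum of the L41800 mice and 7.09 and 4.36 in that of the L42150 mice.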
